A study of Mus musculus with 27 samples.

Results

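Knockdown of MSL1 was examined in PGK12.1 cells, a female mouse embryonic stem (ES) cell line, by comparing 3 arrays from cells given Msl1 small interfering RNA (siRNA) with 3 arrays from cells given control siRNA. These are 6 of the 27 arrays of a series with siRNA against the histone acetyltransferase MOF, against MSL1 or against NSL1. The genes tested were all named genes whose log2 signal averaged 6 or more over the 6 arrays. This level filter kept 14083 of 19938 named genes, read by 15367 probesets. Of these genes, 453 lie on the X chromosome, 13584 on an autosome and 46 on the Y chromosome or unplaced sequence. Xist, the RNA that coats the inactive X, averaged 5.74 and so was not among them.

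Both groups were undifferentiated PGK12.1 cells, derived from a cross of a 129 female with a (129 x PGK)F1 male, at passages 14 to 18. The cells were kept in leukaemia inhibitory factor (LIF) at 1000 U/ml, grown on embryonic fibroblast feeders and freed of feeders on gelatin. The MSL1 group received 100 pmol of Msl1 siRNA for 48 h, and the control group negative control siRNA in the same experiment. Experiments A, B and C each hold 1 MSL1 array and 1 control array, so that differences were taken within an experiment. Experiment C also holds 1 NSL1 array, which was left out of the main fit. The same genes were also compared with those of cells given MOF and MSL1 siRNA together (experiments D and E, 100 pmol of Mof and 50 pmol of Msl1 siRNA) or NSL1 siRNA (D and E), and with MOF siRNA alone (experiments 1 to 3), all in PGK12.1 and each against its own control siRNA. MOF experiments 1 and 2 had a further round of 400 pmol for 24 h. All fold changes come from 1 cell line after transient siRNA. The spread behind the p values was pooled over 26 arrays of the series. These include control and MOF siRNA arrays of other ES lines, WD44 and E14. The labels number the experiments but do not say that they were separate cultures. The p values rest on how far differences within an experiment vary from experiment to experiment, pooled over the 26 arrays. That variation may therefore be technical. The array medians of the 6 arrays were 6.74 to 6.79. Over all 27 arrays the medians ran from 6.225 to 7.96, so not all arrays of the series share 1 distribution of values. What this does to the pooled spread was not tested. Among the 6 arrays, those within each group had correlations of 0.996 to 0.999, and those of different groups 0.995 to 0.998.

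MSL1 is the scaffold of the male-specific lethal (MSL) complex, which holds MOF (gene Kat8), MSL2 and MSL3. In the fruit fly this complex acetylates lysine 16 of histone H4 along the male X and raises its output. In mammals MOF also works in a separate complex around NSL1, and the MSL complex is not limited to males. Undifferentiated female ES cells keep both X chromosomes active.

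Msl1 fell in every experiment. Its log2 level was 8.18, 8.22 and 7.99 in MSL1 arrays A, B and C, against 9.01, 9.08 and 9.21 in control arrays A, B and C. The groups did not overlap, and the signal left was 56.3% of control in experiment A, 55.1% in B and 42.9% in C. Msl1 fell by 0.97 on the log2 scale, with a standard error (SE) of 0.07 and an adjusted p of 1.23e-05 by limma. On a linear scale the mean signal after MSL1 siRNA was 51.1% of control. In this bulk RNA, fewer cells with the transcript and less transcript per cell cannot be told apart.

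None of the other 3 MSL complex genes passed the test. Kat8, the acetyltransferase itself, was at 9.72, 9.69 and 9.63 in the MSL1 arrays, against 9.51, 9.61 and 9.53 in the control arrays. Every MSL1 value for Kat8 lay above every control value, yet the log2 fold change of 0.13 ± 0.06 (SE) had an adjusted p of 0.44. Msl2, the ubiquitin ligase subunit, had a log2 fold change of -0.04 (adjusted p = 0.875), and Msl3, the chromodomain subunit, 0.03 (adjusted p = 0.938). Among 9 measured genes of the NSL complex, 0 were called in either direction.

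**Figure D1:**
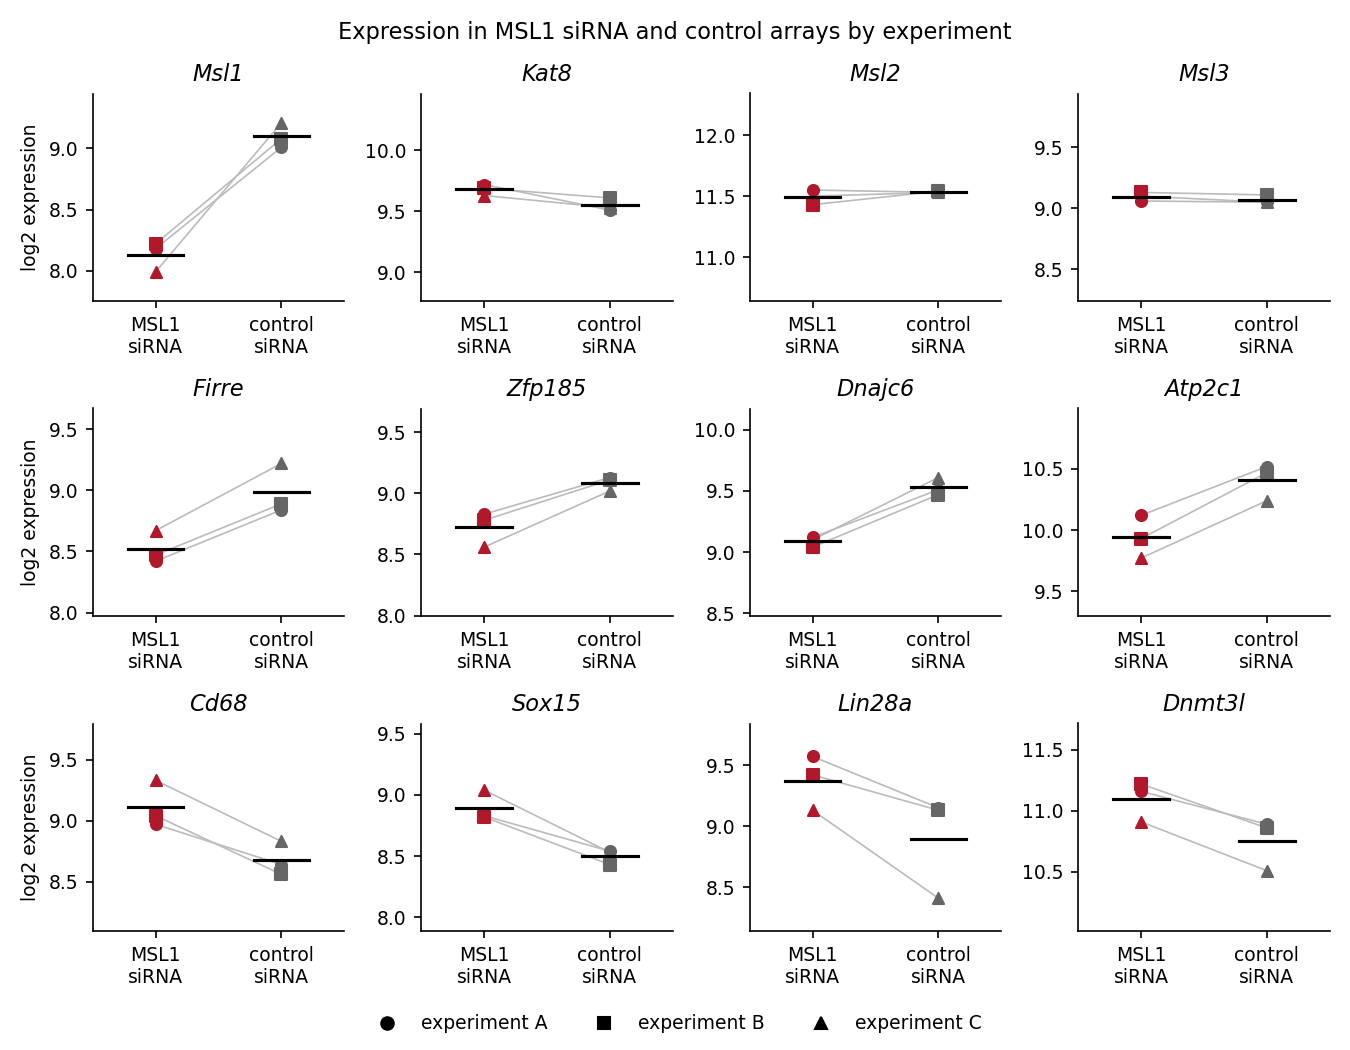
Log2 level of 12 genes in each of the 6 arrays, with MSL1 siRNA arrays (red) left of control siRNA arrays (grey) in each panel and horizontal bars at the group means. Lines join the arrays of 1 experiment (A, B or C), and every panel spans the same range of log2 units, so that the drop of Msl1 can be set against the smaller differences of the other genes.

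Beside Msl1, few genes passed the test and each moved by less than Msl1 did. At an adjusted p under 0.05, 48 of 15367 probesets were called (0.312%), of which 21 were higher after MSL1 siRNA (0.137%) and 27 lower (0.176%), Msl1 included. Each of the 48 reads a different gene. The 21 higher genes reached 1.23 to 1.39 times the control level, and the 26 lower genes other than Msl1 were at 72.0% to 85.3% of it. MSL1 and control arrays did not overlap for 18 of the 21 higher genes and 15 of the 27 lower genes, set against 4.44% and 4.6% of all probesets.

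The count of 48 rests on how the spread was estimated. The fold changes use the 6 arrays only, while the spread was pooled over 26 arrays with experiment as a block. Fitted to the 6 arrays alone, limma called 0 probesets, with 1946 at an unadjusted p under 0.05 against 1850 in the 26-array fit, and the 48 genes had adjusted p values of 0.311 to 0.324. Without the replicate block 1 probeset was called, Msl1. Without experiment A there were 30 calls, of which 21 were among the 48. Without B there were 5 calls and without C also 5, all among the 48. All 48 genes kept their direction in each of these fits, but none of the fits could have reversed it. They average all or some of the same within-experiment differences, which share the same sign for each of the 48 genes. The kept direction therefore does not bear on the count of calls.

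The strongest increase by p was Cd68, a glycoprotein of late endosomes and lysosomes best known as a macrophage marker. Its log2 level was 8.97, 9.04 and 9.33 in the MSL1 arrays, against 8.64, 8.56 and 8.83 in the control arrays. The groups did not overlap, and the log2 fold change was 0.44 ± 0.05 (SE, adjusted p = 0.00128). Ifi30, the lysosomal thiol reductase that opens disulphide bonds for antigen presentation, was at 10.80, 10.99 and 11.18 in the MSL1 arrays, against 10.47, 10.44 and 10.77 in the control arrays. It rose by 0.43 (adjusted p = 0.00465). Despite the interferon-inducible name of Ifi30, the interferon response list held 0 calls, with only 9 of its 23 genes measured.

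Several other called genes also encode proteins of the secretory and endosomal membranes, and they moved both ways. This grouping was made after their values were seen. Atp2c1, the calcium and manganese pump of the Golgi, had the smallest p of the lower genes after Msl1. Its level was 10.12, 9.93 and 9.77 in the MSL1 arrays, against 10.52, 10.47 and 10.24 in the control arrays, and it fell by 0.47 ± 0.05 (SE, adjusted p = 0.00128) with no overlap. Kdelr3, a receptor that returns proteins to the endoplasmic reticulum (ER), rose by 0.45, and Grina, a membrane protein of Golgi and ER, by 0.41. Ap1m2, a subunit of the AP-1 sorting adaptor, rose by 0.30. On the lower side stood Dnajc10, an ER disulphide reductase (-0.32), Erlin1, which takes part in ER protein degradation (-0.30), the ER metallopeptidase Ermp1 (-0.35), and Galnt7, an enzyme of O-linked glycosylation (-0.40). Clcn3, an endosomal chloride and proton exchanger, fell by 0.28.

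Dnajc6 encodes auxilin, which recruits a chaperone to strip clathrin from vesicles. Its level was 9.12, 9.04 and 9.10 in the MSL1 arrays, against 9.51, 9.47 and 9.61 in the control arrays. The groups stood apart by more than the range of either, and it fell by 0.44 ± 0.06 (SE, adjusted p = 0.00583). It was the only member called among 19 measured genes of clathrin coats and uncoating. Its widely expressed relative Gak had a log2 fold change of -0.09 (adjusted p = 0.531).

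Called genes of the cell surface, junctions and extracellular matrix are given next, a grouping also made after their values were seen and not tested. Emp3, a small membrane protein of the PMP22 family, was at 8.25, 8.27 and 8.66 in the MSL1 arrays, against 7.79, 7.88 and 8.09 in the control arrays. It rose by 0.47 ± 0.07 (SE, adjusted p = 0.00583), the largest increase after Lin28a, and its relative Emp2 rose by 0.32. Cldn6, a tight junction claudin of early embryonic epithelia, was at 8.25, 8.14 and 8.33 in the MSL1 arrays, against 7.92, 7.80 and 7.93 in the control arrays. It rose by 0.36 ± 0.05 (SE, adjusted p = 0.0061) with groups that did not overlap. Tgm1, the transglutaminase that cross-links the skin barrier, rose by 0.32, and Ltbp4, which binds latent TGF-beta in the matrix, by 0.34.

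Slit2 encodes a secreted guidance ligand of Robo receptors. Its level was 6.87, 6.72 and 6.90 in the MSL1 arrays, against 7.17, 7.17 and 7.47 in the control arrays, and it fell by 0.44 ± 0.06 (SE, adjusted p = 0.00465). The adhesion receptors Itgb1, the beta-1 integrin, and Ddr2, a collagen-binding receptor kinase, fell by 0.24 and 0.29. For both, MSL1 and control arrays overlapped across experiments, and experiment C was the lowest in both groups. Myof, a membrane repair and fusion protein, fell by 0.32.

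Arhgdib rose by 0.40 and Rtkn by 0.34. Arhgdib was at 10.03, 10.25 and 9.81 in the MSL1 arrays, against 9.76, 9.73 and 9.41 in the control arrays. Every MSL1 value for Arhgdib lay above every control value. Dock11 fell by 0.30, and the actin-bundling protein Pls3 by 0.30. In the list of 19 measured actin cytoskeleton targets of SRF and YAP, 0 were called, and Cnn2 came nearest at 0.26 (adjusted p = 0.125).

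Among metabolic and transport genes, Pla2g1b and Acsm4 stood out. Pla2g1b, a secreted phospholipase A2, was at 10.10, 10.15 and 10.33 in the MSL1 arrays, against 9.74, 9.67 and 9.94 in the control arrays, and rose by 0.41 ± 0.06 (SE, adjusted p = 0.00465). Acsm4, of the medium-chain acyl-CoA synthetase family, was at 8.96, 8.96 and 8.37 in the MSL1 arrays, against 9.41, 9.34 and 8.96 in the control arrays. It fell by 0.47 ± 0.06 (SE, adjusted p = 0.00495), and MSL1 arrays A and B met control array C at 8.96. Pde3b, which breaks down cyclic nucleotides, fell by 0.44, the organic anion transporter Slco4c1 by 0.41 and the peptide transporter Slc15a1 by 0.23. Lists of cholesterol synthesis (19 measured), glycolysis and hypoxia (18) and oxidative phosphorylation (38) held 0 calls each.

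The remaining calls were of mixed roles. Catsperz, a subunit of the sperm calcium channel, rose by 0.36, Cep170b, a relative of a centrosomal protein, by 0.34, and Zbtb32, a zinc finger repressor, by 0.30. Dcaf6, a substrate receptor of CUL4 ubiquitin ligases, fell by 0.26, as did Mkln1, a subunit of another ubiquitin ligase, and Avl9, named for a yeast gene of late secretion.

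**Figure D2:**
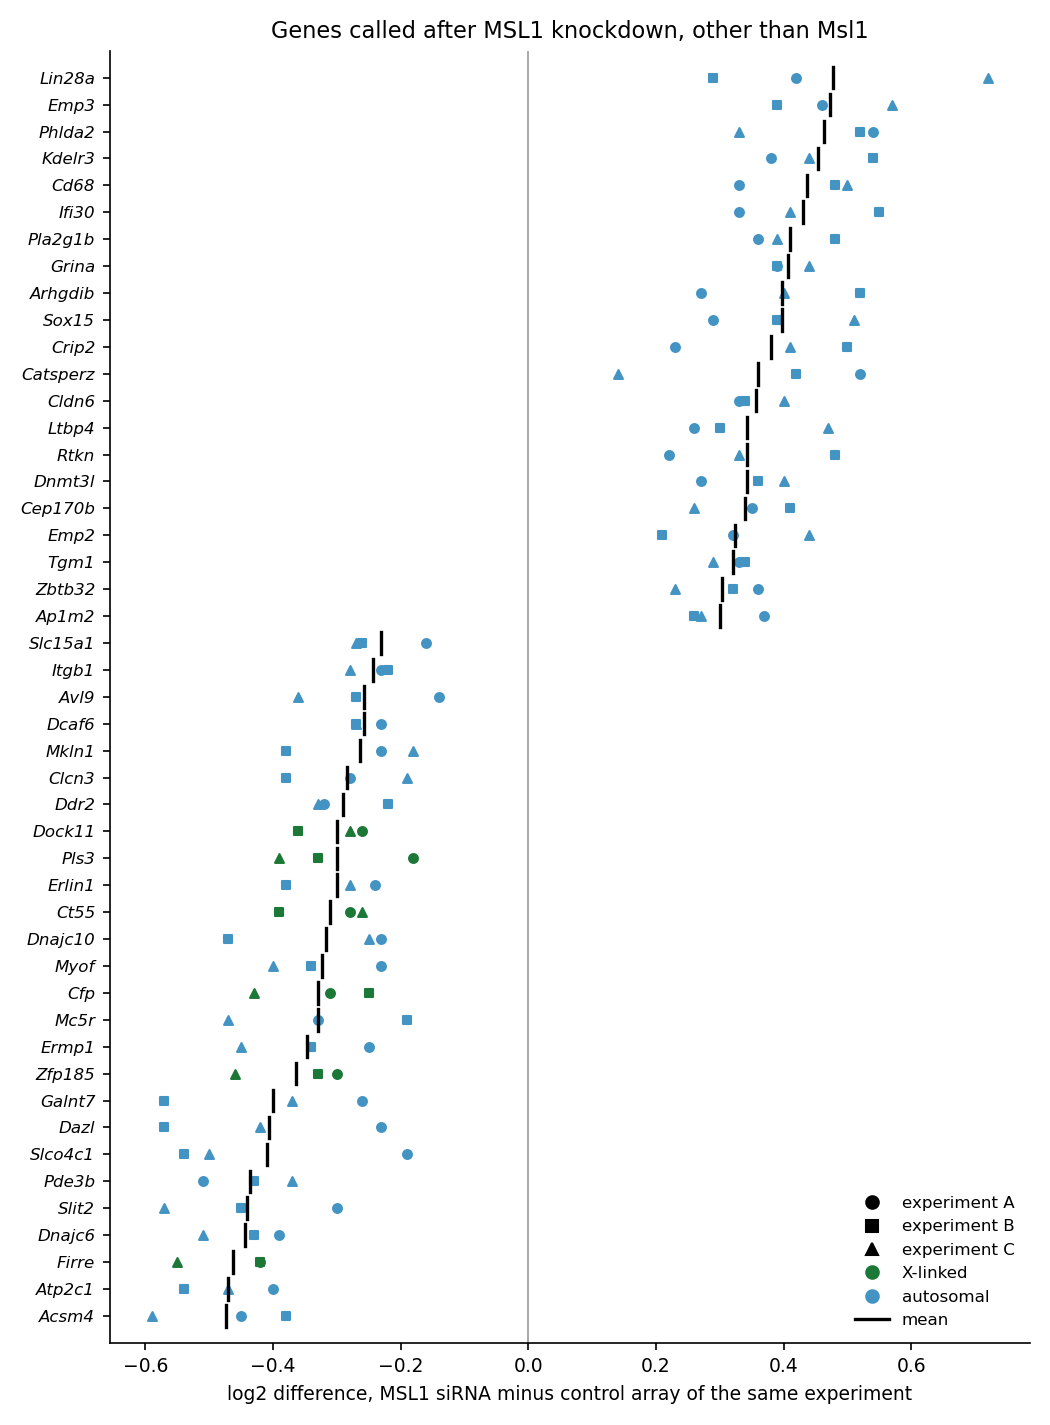
Log2 difference, MSL1 siRNA minus control siRNA, of the 21 higher and 26 lower called genes other than Msl1, with 1 symbol per experiment (A to C), the mean as a black bar and X-linked genes in green. The 3 differences lie on the same side of 0 for every gene shown, and the X-linked genes all lie on the lower side.

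Core ES cell genes were detected in both groups, and 0 of 8 ES cell markers passed the test in either direction. Pou5f1, which encodes OCT4, was at 12.39, 12.49 and 12.41 in the MSL1 arrays, against 12.38, 12.42 and 12.47 in the control arrays. Nanog was at 12.92, 12.92 and 12.96 in the MSL1 arrays, against 12.97, 13.00 and 13.01 in the control arrays, a log2 fold change of -0.06 (adjusted p = 0.696). The Nanog values were all slightly below control, yet did not pass the test. Of 27 measured naive and core pluripotency genes, 2 were called higher and 0 lower, with a list median of -0.01 against 0.00 over all genes, where 0.149% of genes were called higher and 0.192% lower.

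The pair called were Lin28a and Sox15. Lin28a, which blocks maturation of let-7 microRNAs, was at 9.57, 9.42 and 9.13 in the MSL1 arrays, against 9.15, 9.13 and 8.41 in the control arrays. Each MSL1 array was above its own control, but experiment C was lower in both groups, and the groups overlapped: MSL1 array C, at 9.13, lay below control array A and level with control array B. Lin28a rose by 0.48 ± 0.07 (SE, adjusted p = 0.0068). Sox15, a SOX factor found in ES cells beside SOX2, was at 8.83, 8.82 and 9.04 in the MSL1 arrays, against 8.54, 8.43 and 8.53 in the control arrays. It rose by 0.40 ± 0.07 (SE, adjusted p = 0.022), while Sox2 had a log2 fold change of -0.09 (adjusted p = 0.503) and no other of the 18 measured SOX and HMG-box genes was called. Utf1, a chromatin protein of ES cells, did not overlap between groups but did not pass, at 0.25 (adjusted p = 0.108).

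Sox15 lies close to Cd68 on chromosome 11, with 1 protein-coding gene between them. Both rose, by 0.40 and 0.44. Mpdu1, the gene between, had a log2 fold change of 0.00 (adjusted p = 0.993), and the flanking Fxr2 one of 0.03. This neighbourhood was looked up after the values were seen.

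Genes of the next stages gave single calls. Dnmt3l, the partner of the de novo DNA methyltransferases, was at 11.16, 11.22 and 10.91 in the MSL1 arrays, against 10.89, 10.86 and 10.51 in the control arrays. It rose by 0.34 ± 0.05 (SE, adjusted p = 0.01) and was the only call among 17 measured genes of the primed epiblast and Nodal pathway. Otx2, a transcription factor of the primed state, had a log2 fold change of -0.29 (adjusted p = 0.101). In the TGF-beta and BMP pathway 1 of 23 measured genes was called, Ltbp4.

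Markers of differentiated lineages gave 1 call in all. Tgm1 was called higher among 16 measured trophectoderm and keratin genes, and Ascl2, Krt8 and Krt18 had log2 fold changes of 0.22, 0.26 and 0.12 that did not pass. Primitive endoderm (15 measured), mesoderm (14), neuroectoderm (11) and Hox genes (26) held 0 calls each. The feeder list, 17 of 24 genes measured, also held 0 calls, and its summed linear level was 9536 to 9819 in the MSL1 arrays and 8829 to 9438 in the control arrays, ranges that did not overlap. Dcn, Lum, Postn and Prrx1 were among its members below the level of 6. What feeder cells contribute to the results was not tested.

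Phlda2, an imprinted gene that restrains placental growth, was among the strongest increases. It was at 8.88, 9.0 and 8.62 in the MSL1 arrays, against 8.34, 8.48 and 8.29 in the control arrays, and rose by 0.46 ± 0.06 (SE, adjusted p = 0.00465). No other of the 18 measured imprinted genes was called. Dazl, an RNA-binding protein of germ cells, was at 8.87, 8.51 and 8.60 in the MSL1 arrays, against 9.10, 9.08 and 9.02 in the control arrays. It fell by 0.41 ± 0.07 (SE, adjusted p = 0.0175) and was the only call among 14 measured germ cell genes, where Ddx4 and Stk31 had log2 fold changes of -0.19 and -0.20 that did not pass.

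Lists of growth and stress held no call. DNA replication (25 measured), mitosis (21), DNA repair and checkpoint (23), p53 targets (21), and ATF4 and unfolded protein response genes (21) had 0 genes called in either direction. At an unadjusted p under 0.05, 6 DNA repair genes were lower and 0 higher, with a list median of -0.05 and Prkdc, a kinase of double-strand break repair, at -0.24 (adjusted p = 0.169). Over all genes 7.09% were lower and 5.06% higher at that p. For p53 targets the same counts were 5 higher and 1 lower, with a median of 0.04. Of the 48 called genes, 38 lay in none of the 28 lists examined.

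Lower calls made up a larger share of genes on the X chromosome, the target of the complex in flies, than of autosomal genes. Of the 27 lower genes 6 are X-linked, and of the 21 higher genes 0, while the X carries 3.22% of the genes tested. That is 1.32% of X-linked genes called lower, against 0.155% of autosomal genes called lower. The lower X-linked genes were Firre, Zfp185, Ct55, Dock11, Cfp and Pls3. Fitted to the 6 arrays alone or without the replicate block, 0 X-linked probesets were called, and leaving out experiment B or C also gave 0, and A 3.

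Firre, an X-linked long noncoding RNA that escapes X inactivation and helps to anchor the inactive X, had the largest drop among them. Its level was 8.42, 8.47 and 8.67 in the MSL1 arrays, against 8.84, 8.89 and 9.22 in the control arrays. The groups did not overlap, and it fell by 0.46 ± 0.06 (SE, adjusted p = 0.00465). Of 12 genes listed for the X inactivation centre and X-linked noncoding RNAs, 4 were measured, and Firre alone was called. Chic1, Rlim and Nap1l2 had log2 fold changes of -0.19, -0.10 and 0.12.

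Zfp185, a LIM-domain protein of the actin cytoskeleton, was at 8.83, 8.78 and 8.56 in the MSL1 arrays, against 9.13, 9.11 and 9.02 in the control arrays, and fell by 0.36 ± 0.06 (SE, adjusted p = 0.0103). Ct55, a cancer and testis antigen, was at 8.28, 8.16 and 8.73 in the MSL1 arrays, against 8.56, 8.55 and 8.99 in the control arrays. Zfp185 stood apart in the groups, whereas Ct55 was low within each experiment but high in both arrays of experiment C. Ct55 fell by 0.31, and Cfp, which encodes the complement factor properdin, fell by 0.33. The 5 X-linked genes with the smallest p on the higher side did not pass, led by Car5b, a mitochondrial carbonic anhydrase, at 0.38 (adjusted p = 0.0796). Car5b was at 6.73, 7.08 and 7.10 in the MSL1 arrays, against 6.41, 6.51 and 6.85 in the control arrays, so that the groups overlapped.

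Across the whole X the shift was small. The median log2 fold change of X-linked genes minus that of autosomal genes was -0.01 in experiment A, -0.05 in B and -0.02 in C. All 3 had the same sign, with a mean of -0.03 ± 0.02 (SD, n = 3), and an exact two-sided sign-flip test over experiments gave p = 0.25, the smallest p that 3 experiments allow. Of X-linked genes, 27.2% were lower in all 3 experiments and 10.8% higher in all 3, against 15.03% lower and 15.4% higher on autosomes. At an unadjusted p under 0.05 the shares were 14.8% lower and 4.19% higher on the X, against 6.85% lower and 5.11% higher on autosomes.

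**Figure D3:**
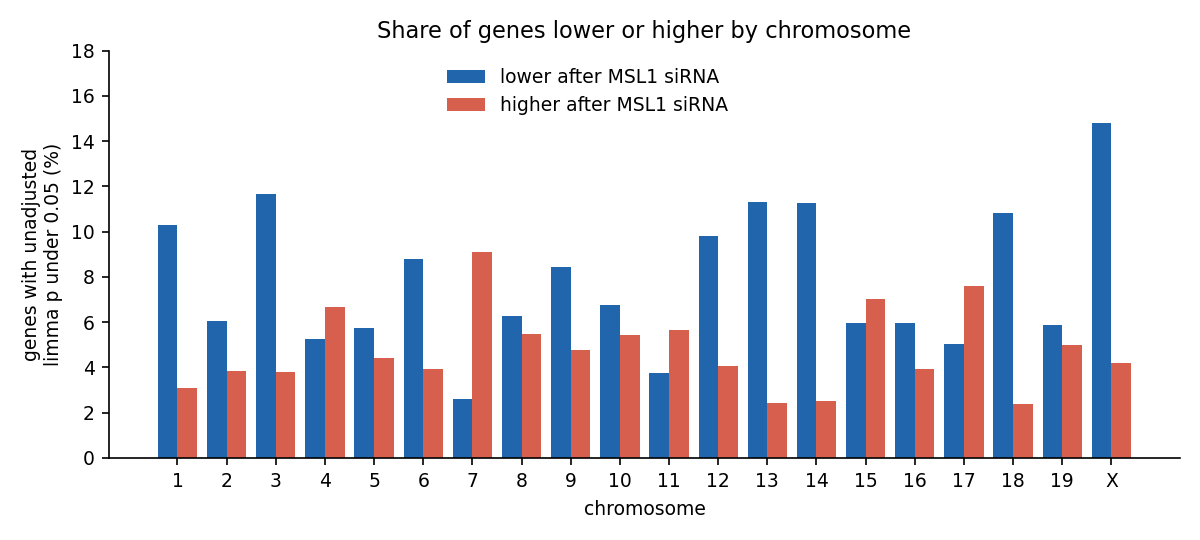
Percentage of tested genes on each chromosome that were lower (blue) or higher (red) after MSL1 siRNA at an unadjusted limma p under 0.05. The X has the highest share of lower genes, at 14.8%, followed by chromosome 3 at 11.7%, while chromosome 7 has the highest share of higher genes, at 9.12%.

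Autosomes also differed among themselves. After the X, the share of lower genes was highest on chromosome 3, at 11.7%, and the lowest share was on chromosome 7, at 2.61%. Chromosome 7 had the largest share of higher genes, at 9.12%. The median log2 fold change of chromosome 13 was -0.03, as on the X.

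Promoters of called genes were searched because the MSL complex of flies recognises GA-rich sequence on the X. The motif was GAGAGAGA or its reverse complement TCTCTCTC, with overlapping matches counted, in RefSeq windows of GRCm38.p6 that run 250 bases before to 50 bases after each annotated start. Of the higher genes 20 of 21 were matched, and 4 of their 32 windows held the motif (12.5%). Of the lower genes 25 of 27 were matched, and 0 of their 33 windows held it, the X-linked ones among them. The motif was held by 3.93% of all RefSeq windows searched, and by 3.23% over the genes tested. The median number of CG dinucleotides per window was 10 in the higher genes and 16 in the lower genes, against 19 over the genes tested. A match describes these letters only.

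The 4 windows with the motif, all of genes that rose, are shown with the matches in capitals, each written 5′ to 3′ on the gene's strand, and each of these genes has further windows without it. They are Arhgdib at chr6:136941454-136941753 (minus strand, 5 overlapping matches), Emp3 at chr7:45921377-45921676 (minus strand, 2), Dnmt3l at chr10:78042037-78042336 (plus strand, 1) and Rtkn at chr6:83141856-83142155 (plus strand, 1). The window of Firre, which had the largest decrease of the called X-linked genes, is given for comparison at chrX:50635272-50635571 (minus strand, 0 matches).
Arhgdib: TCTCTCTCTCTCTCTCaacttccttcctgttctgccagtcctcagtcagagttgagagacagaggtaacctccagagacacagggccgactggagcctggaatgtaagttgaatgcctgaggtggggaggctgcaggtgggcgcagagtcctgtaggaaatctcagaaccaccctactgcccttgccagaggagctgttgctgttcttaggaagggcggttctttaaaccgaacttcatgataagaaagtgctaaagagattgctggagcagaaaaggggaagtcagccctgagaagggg
Emp3: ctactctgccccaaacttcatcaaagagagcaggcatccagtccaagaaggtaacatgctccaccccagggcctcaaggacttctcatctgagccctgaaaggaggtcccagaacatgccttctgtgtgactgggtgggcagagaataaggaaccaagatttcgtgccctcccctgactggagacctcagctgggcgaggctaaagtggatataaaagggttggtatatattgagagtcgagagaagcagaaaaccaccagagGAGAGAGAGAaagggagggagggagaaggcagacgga
Dnmt3l: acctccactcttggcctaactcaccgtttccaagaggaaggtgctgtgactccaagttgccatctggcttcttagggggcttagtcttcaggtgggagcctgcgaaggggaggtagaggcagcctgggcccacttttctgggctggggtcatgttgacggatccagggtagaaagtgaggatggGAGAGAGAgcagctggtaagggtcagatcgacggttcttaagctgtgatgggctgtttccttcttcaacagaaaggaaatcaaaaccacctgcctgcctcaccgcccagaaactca
Rtkn: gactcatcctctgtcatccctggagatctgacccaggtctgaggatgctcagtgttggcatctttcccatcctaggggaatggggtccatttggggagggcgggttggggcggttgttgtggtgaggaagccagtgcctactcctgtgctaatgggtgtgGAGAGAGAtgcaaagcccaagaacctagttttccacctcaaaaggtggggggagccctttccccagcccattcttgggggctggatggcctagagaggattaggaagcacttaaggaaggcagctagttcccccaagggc
Firre: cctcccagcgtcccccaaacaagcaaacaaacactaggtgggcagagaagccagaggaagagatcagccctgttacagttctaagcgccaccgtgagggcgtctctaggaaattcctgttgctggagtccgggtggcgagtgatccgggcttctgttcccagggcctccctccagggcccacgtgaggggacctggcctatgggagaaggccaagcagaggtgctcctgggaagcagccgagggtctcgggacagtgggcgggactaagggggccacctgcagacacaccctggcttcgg

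In Arhgdib the matches open the window, far upstream of the start, as a single run of alternating T and C. In Emp3 and Dnmt3l the run is of alternating G and A, and in Emp3 it lies after the annotated start. Lin28a and Phlda2, with increases close to that of Emp3, held none in their matched windows.

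Cells given MOF and MSL1 siRNA together give Msl1 depletion in arrays that share none with experiments A to C. Msl1 fell by 0.97 after MSL1 siRNA alone and by 0.45 ± 0.09 (SE, adjusted p = 0.00611) with both siRNAs, where it fell by 0.49 in experiment D and 0.42 in E. The difference was -0.52 (adjusted p = 0.0342). Mof siRNA was present as well, and the contribution of each siRNA cannot be told apart. Of the 21 higher genes, 14 were above control there (49.2% of all probesets) and 9 were called higher (3.83% of all probesets), while 0 were called lower. Of the 27 lower genes, 20 were below control (50.8% of all probesets) and 8 were called lower, Msl1 included (4.2% of all probesets), while 3 were called higher. Those 17 calls became 3 when experiment D was left out and 7 when E was.

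Among genes that rose in both, Cd68 had log2 fold changes of 0.56 in experiment D and 0.52 in E, Lin28a 0.62 and 0.48, Sox15 0.54 and 0.70, and Crip2, a LIM-domain protein, 0.50 and 0.56. Each of these values was at or above the gene's mean after MSL1 siRNA alone. Tgm1, Ifi30, Ltbp4, Cep170b and Rtkn also rose, by 0.25 to 0.39. Among genes that fell in both, Firre had -0.47 in D and -0.49 in E, Zfp185 -0.46 and -0.46, and Dnajc6 -0.58 and -0.45. Ct55, Pde3b, Dock11 and Dnajc10 also fell. The X-linked Cfp and Pls3 had -0.09 and -0.18 and did not pass.

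Dazl, Mc5r and Ddr2 went the other way. Dazl had -0.41 after MSL1 siRNA alone, against 0.40 in D and 0.39 in E with both siRNAs (adjusted p = 0.0107). Mc5r, a melanocortin receptor, had -0.33 after MSL1 siRNA alone and 0.47 with both. Ddr2 had -0.29 after MSL1 siRNA alone and 0.24 with both. For these genes the difference between the 2 treatments itself passed, with adjusted p values of 0.00251, 0.00113 and 0.00808.

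**Figure D4:**
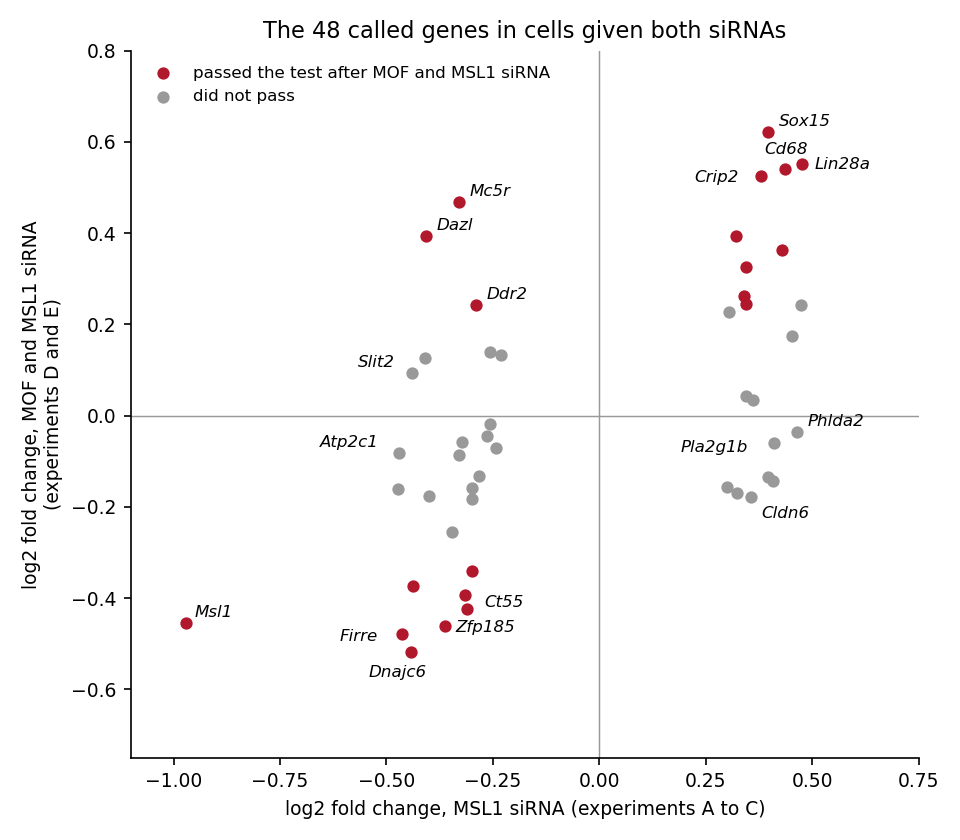
Log2 fold change of the 48 called genes after MSL1 siRNA (x axis, mean of experiments A to C) against that after MOF and MSL1 siRNA together (y axis, mean of experiments D and E), each minus its own control. Red points passed the test on the y axis, and 34 of the 48 genes have the same sign on both axes.

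The difference from the double-siRNA effect was tested for all probesets. It passed for 16 of the 48 genes, against 1.66% of all probesets, and 14 of those 16 had opposite signs in the 2 treatments. The 48 genes were chosen by their MSL1 effect, which enters the difference, so that this count is a description. Phlda2 had 0.46 after MSL1 siRNA alone and -0.04 with both (difference 0.50, adjusted p = 0.0198). Pla2g1b had 0.41 alone and -0.06 with both (difference 0.47, adjusted p = 0.0172), and Cldn6 0.36 alone and -0.18 with both (difference 0.54, adjusted p = 0.00512). Atp2c1 had -0.47 alone and -0.08 with both (adjusted p of the difference = 0.0327), and Slit2 -0.44 alone and 0.09 with both (adjusted p = 0.0124). Leaving out experiment B, C, D or E took the 16 to 7, 8, 1 or 4.

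MOF siRNA alone moved some of the same genes. In experiments 1 to 3, 8 of the 21 higher genes were called higher and 2 lower, and 7 of the 27 lower genes were called lower and 7 higher, against 10.4% higher and 14.6% lower over all probesets. Firre (-0.38), Zfp185 (-0.62), Dock11 (-0.19), Dnajc6 (-0.19), Dnajc10 (-0.51) and Pde3b (-0.31) fell there too, and Cd68 (0.47), Crip2 (0.42), Rtkn (0.46), Tgm1 (0.33) and Ifi30 (0.33) rose. Lin28a had 0.48 after MSL1 siRNA and -0.17 after MOF siRNA (adjusted p = 0.0874), and the difference passed (adjusted p = 0.00116). The X-linked Cfp had -0.33 after MSL1 siRNA and 0.20 after MOF siRNA, where it passed as higher.

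NSL1 siRNA gave more calls against the MSL1 direction than with it among these genes. The labels name this siRNA only as NSL1, and the level of its target transcript is not given here. In experiments D and E, 5 of the 21 higher genes were called higher and 9 lower. Of the 27 lower genes, 3 were called lower and 14 higher, Msl1 included. The background over all probesets was 18.0% higher and 21.1% lower. Msl1 itself had a log2 fold change of 0.46 after NSL1 siRNA (adjusted p = 0.00066 by limma). The difference between the MSL1 and NSL1 effects passed for 38 of the 48, against 32.7% of all probesets. That between the MSL1 and MOF effects passed for 27, against 10.2%. These counts carry the same choice of genes as above, and the NSL1 and double-siRNA arrays share their controls. Firre had -0.46 after MSL1 siRNA and 0.29 after NSL1 siRNA. Pla2g1b had 0.41 after MSL1 siRNA and -0.82 after NSL1 siRNA, whereas Crip2 rose after both, by 0.38 with MSL1 siRNA and 0.66 with NSL1 siRNA. The other genes called higher after both were Sox15 (0.47 after NSL1 siRNA), Rtkn (0.46), Cd68 (0.40) and Lin28a (0.36). Those called lower after both were Ct55 (-0.58 after NSL1 siRNA), Dnajc10 (-0.51) and Erlin1 (-0.22).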

How the data were processed

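RNA was measured on Affymetrix arrays, 1 log2 value per probeset and array for 35556 probesets. The log2 values were made by the authors with Affymetrix Expression Console and RMA, per the submitters' processing notes, and were used as deposited; tool versions and genome build are not given in the sources used here. RMA corrects background and quantile-normalizes arrays, which hides any change of total RNA. Precision is set by the number of arrays, since arrays have no read depth. Names came from the platform annotation with symbols updated through RefSeq of GRCm38.p6: 21789 had 1 symbol, 1621 several, 12146 none, and 21698 matched RefSeq. Probesets with several symbols or none were left out. For counts of genes, the probeset with the highest mean stood for a gene (745 genes had several). The level filter of 6 stopped at Sox17, Il12b and Adam4 inside and Thsd7b, Gpr142 and Zfp119a (5.998) outside.

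Groups were taken from the sample titles. limma 3.58.1 in R 4.3.3 was fitted to 26 arrays, all but the NSL1 array of experiment C, with experiment (12 levels) as a block, since the labels number the experiments. The MSL1 fold change is then the mean of the 3 within-experiment differences, and the other arrays add to the spread alone. Tests were two-sided with Benjamini-Hochberg adjustment over 15367 probesets, called at an adjusted p under 0.05. Deviations of same-lettered arrays correlated at 0.45, 0.016 and 0.62 in experiments A, B and C. MSL1 array A correlated as well with control B (0.454), MSL1 array B better with control A (0.106), and the pairing rests on the labels and not on this check. On simulated data with 200 of 15367 probesets changed, this fit recovered 100% at a log2 size of 1, 90.9% at 0.5 and 62.1% at 0.3, with 9 false calls. The 6 arrays alone recovered 100%, 77.3% and 7.58% with 2 false calls, and the fit without the block 92.6%, 19.7% and 0% with 0 false calls. The simulated noise was independent, with 1 spread per probeset for all 26 arrays, and came from the same block model that was fitted. The simulation therefore could not test whether the spread may be pooled over these arrays. Promoter windows on chromosome 18 were not used. Lists of genes were described by counts and medians without a test. Genes were named by a rule: MSL complex genes, up to 15 in each direction by p with the same sign in 3 experiments, 5 X-linked ones in each direction, and at most 4 of a list; other called genes were named to account for all 48. The members and lists were chosen with earlier results of these data known. Alternatives changed the arrays, block, filter, scaling, variance model and replicates.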

Additional observations from a re-analysis of the deposited data

How the results depend on the processing

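Against 48 calls, no replicate block gave 1, the 6 arrays alone 0 (adjusted p of Msl1 = 0.311, its log2 fold change still -0.97), no filter 3, a mean of at least 7 gave 111, trend and robust moderation 117 and array weights 273; leaving out 1 experiment gave 5 to 30. X-linked lower calls (6) were in these settings 0, 0, 0, 10, 12 and 20, and 0 to 3 with 1 experiment left out. X-linked higher calls (0) were 1 with trend and robust moderation and 5 with array weights. Calls shared with the double siRNA (17) were 0 without the replicate block, 10 with no filter and 3 to 17 with 1 experiment left out; differences from it (16) were 0 without the block, 7 with all 27 arrays, 1 with no filter and 1 to 16 with 1 experiment left out. Differences from NSL1 (38) and MOF (27) were 12 and 4 without the block. Counts stayed within 1.5 times with all 27 arrays (33), the 18 PGK12.1 arrays (40), median centring (57) and cyclic loess (60). Of the 48 calls, these 4 settings kept 31, 32, 46 and 47, in that order. Array weights, moderation and the filter change the spread each probeset is tested against, and the cause of each change was not tested. The 47 called genes other than Msl1 kept their direction in all 13 alternatives. Changing the spread or leaving out 1 experiment could not reverse it, since the 3 within-experiment differences of each gene share 1 sign. Msl1 stayed between -1.04 and -0.845 with 1 experiment left out, and the X-linked median stayed below the autosomal one. The X-linked C330007P06Rik, at 0.18 (not called), was at -0.0933 by its other probeset. The experiments left out beyond A to C were chosen after seeing the data. Signals near background and 3 pairs of arrays limit all values.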

Other observations

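Chromatin enzymes other than MOF were examined as a list of 17 acetyltransferases and deacetylases, all measured. None was called. Kat5, the acetyltransferase TIP60, had a log2 fold change of 0.13 (adjusted p = 0.313), the deacetylase Sirt2 one of 0.13 (adjusted p = 0.346) and Hdac2 one of -0.10 (adjusted p = 0.433).

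Genes of the transient two-cell-like state were mostly below the level filter, with 4 of 18 measured and 0 called. Tdpoz3 was at 6.57, 6.85 and 6.42 in the MSL1 arrays, against 6.21, 6.21 and 6.22 in the control arrays. The groups did not overlap, and its log2 fold change of 0.40 had an adjusted p of 0.119. Members of the Tdpoz family are near-identical copies, so that 1 probeset may read several of them.

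In the cholesterol synthesis list of 19 measured genes, 3 were lower and 0 higher at an unadjusted p under 0.05, against 7.09% lower and 5.06% higher over all genes, and 0 passed the adjusted test. Idi1, Insig1 and Cyp51 had log2 fold changes of -0.27, -0.17 and -0.20, with adjusted p values of 0.137, 0.167 and 0.181. The list median was -0.01.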
